A study of Mus musculus with 6 samples.

Results

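The genes described here are 38 genes of the contractile actin cytoskeleton: actins, tropomyosins, subunits of myosin II, calponins and caldesmon, and the proteins that cross-link, anchor or turn over actin filaments. They were chosen by a rule that lists them by symbol, matched through their Entrez numbers to 38 of the 36528 genes in each library. The counts in DT against saline were in view when the list was drawn up. The fold changes and calls of these genes are therefore a description of these 6 libraries and support nothing beyond it.

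The series profiled polyadenylated RNA of hair follicle stem cells sorted from mouse skin as CD49f+, CD34+ and GFP-. CD49f is integrin alpha 6 and CD34 marks the bulge, the stem cell niche of the follicle. All mice were Lgr5-DTReGFP, in which cells that express Lgr5 carry a receptor for diphtheria toxin (DT) together with green fluorescent protein. One group of 3 libraries came from mice given saline (NaCl) and the other 3 from mice given DT, so the controls carry the same allele. Age, sex, dose, time after DT and hair cycle stage are not given in the labels, and mice without the receptor that were given DT were not analysed here. The labels do not say whether libraries come from separate animals, so the spread between libraries may be technical.

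Non-muscle cells pull on their surroundings with filaments of actin and myosin II. Phosphorylation of the regulatory light chain switches the myosin on, tropomyosins and calponins coat the filaments, and alpha-actinins, filamin, vinculin, talin and zyxin tie them to adhesion sites. Smooth muscle and myofibroblasts use dedicated versions of several of these proteins, such as Acta2, Cnn1, Tagln and Myl9. Many of the genes are targets of the transcription factor SRF and its coactivators, the MRTFs, which are released when monomeric actin is used up. In skin epithelium, actomyosin serves adhesion to the basement membrane, migration during wound closure and division.

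The libraries held 15300755 to 25558859 reads in genes, and 15132 genes were tested. The level of a gene is given in CPM, its reads relative to the TMM-scaled total of the library. A gene is called higher or lower in DT when its adjusted p is under 0.05 in edgeR's quasi-likelihood test fitted across all of these genes. On the main axis of variation DT library 1 lay at 47.4, library 2 at 80.5 and library 3 at 66.1, and the saline group at -76.6 to -56.8. On the next axis saline library 1 stood alone (56.9), away from its group (-30.7 and -34.5). The bulge keratin Krt15 (23940 to 42950 CPM) and Cd34 (1883 to 3088 CPM) were high in all 6 libraries. Of 9 bulge markers Krt14 was called higher (log2 1.78), Lhx2 (-1.09), Sox9 (-0.71) and Nfatc1 (-0.69) lower, and 5 were not called.

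Of the 38 genes, 27 were called higher in DT and 0 lower, and 11 were not called. Across all genes tested 17.2% were called higher and 11.9% lower, 29.0% in all. Of the genes called, 59.2% were higher, and 47.5% when scaled by library size only, which moved the median of all genes by -0.098 and left 26 of the 38 genes called higher and 0 lower. The median log2 fold change of the 38 genes was 0.98, and that of all genes tested was -0.01. The DT libraries did not overlap the saline libraries for 28 of the 38 genes, against 45.9% of all genes tested. Because the list was drawn up on this contrast, nothing is read from these shares. Together the 38 genes took 1.303%, 1.07% and 0.952% of reads in saline libraries 1 to 3 and 1.67%, 2.19% and 1.71% in DT libraries 1 to 3. Without Actb, the most abundant of them, the shares were 0.651% ± 0.0378 in saline and 1.03% ± 0.0834 in DT (SD, n = 3). In bulk RNA a different proportion of cells that express a gene and a different amount of RNA per cell cannot be told apart.

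**Figure D1:**
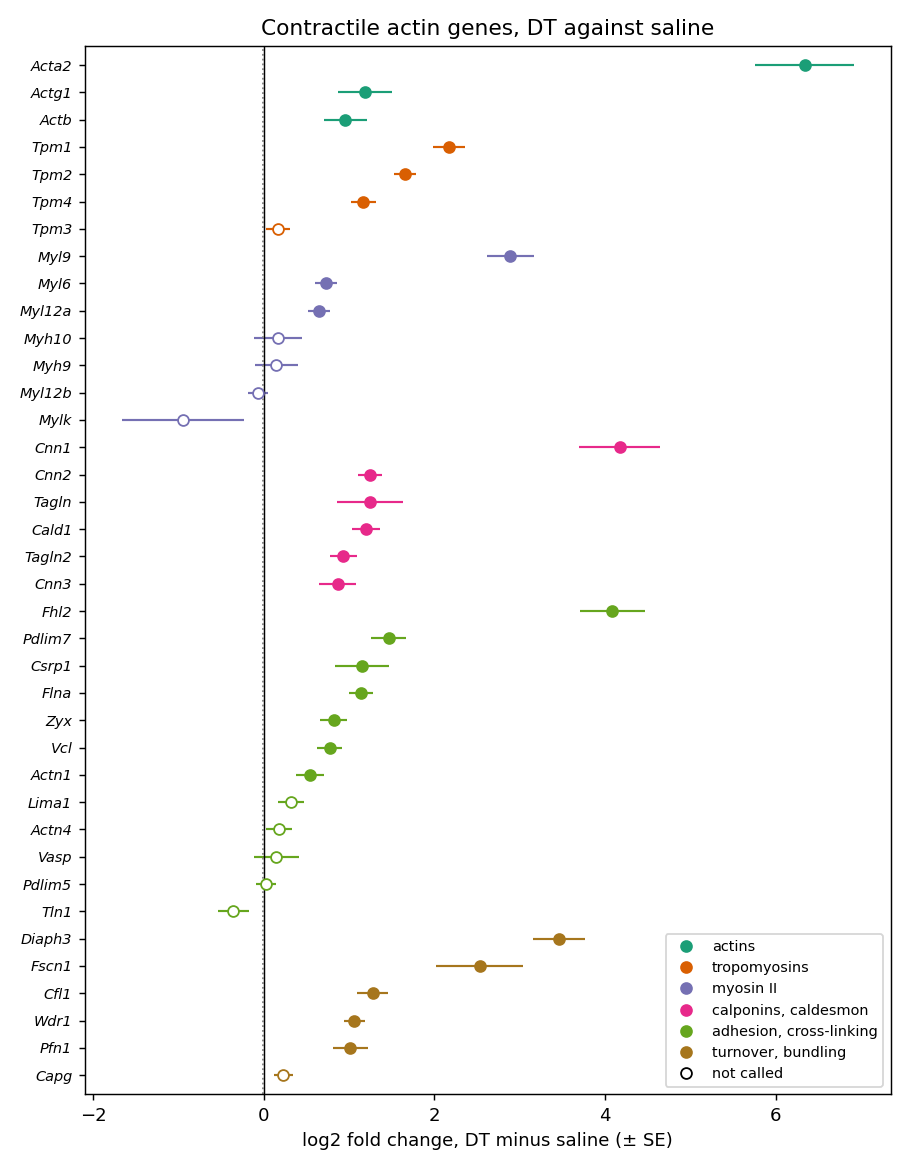
Log2 fold change (DT minus saline, with its standard error) of the 38 genes, grouped by role and ordered within a role. Filled points are called in the fit across all genes and open points are not. Acta2, at 6.34, stands farthest to the right and Mylk, at -0.95, farthest to the left with a wide error.

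The sequence of the promoters was not an item of the rule that chose the genes. Many contractile genes are known targets of SRF, though, so the motif of SRF could be frequent among them whatever the treatment. RefSeq promoter windows (GRCm38.p6, 250 bases before to 50 bases after the annotated start) were found for 36 of the 38 genes, and Actb and Tagln had none. The CArG box, the binding motif of SRF, has the same pattern on both strands, and was searched in its strict form of CC, 6 bases that are each A or T, and GG. It was found in the windows of 7 of the 36 genes (19.4%): Actg1, Cnn2, Fhl2, Lima1, Myl6, Myl9 and Vcl. Among all 27025 RefSeq genes with a window, expressed in these cells or not, 488 held one (1.81%). This comparison concerns which genes are listed, not their change in DT. Of the 7 genes 6 were called higher, with a median log2 fold change of 1.18. Of the 29 genes whose windows held none, 19 were called higher, with a median of 0.93. A looser or more distant SRF site counts as none here. The calls come from the contrast on which the list was drawn up, so nothing is read from the difference. Other motifs were searched on both strands. The AP-1 motif TGANTCA was in the windows of 5 of the 36 genes (13.9%, against 8.97% of all genes), and the TEAD core GGAATG in 11 (30.6%, against 16.6%). A match is a run of letters in the window and not evidence of a bound site.

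The stretches around 6 of these boxes are shown because they include the gene with 2 windows that hold one (Fhl2), the light chain with the highest fold change (Myl9), and 3 genes with the same 10 bases, CCTTATAAGG, of which Cnn2 and Vcl were called higher and Lima1 was not. Each is written 5′ to 3′ along the strand of the gene, ends before the start site, and has the CArG box in capitals. The Fhl2 stretches lie at chr1:43196808-43196897 and chr1:43163962-43164032 (minus strand), the Myl9 stretch at chr2:156775263-156775352 (plus), Cnn2 at chr10:79988504-79988593 (plus), Vcl at chr14:20929148-20929220 (plus) and Lima1 at chr15:99820150-99820236 (minus). The boxes end 87 and 22 bases before the start site in Fhl2, 152 in Myl9, 47 in Cnn2, 218 in Vcl and 38 in Lima1.
Fhl2, upstream start: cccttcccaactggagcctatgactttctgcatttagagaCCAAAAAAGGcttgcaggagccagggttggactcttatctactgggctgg
Fhl2, downstream start: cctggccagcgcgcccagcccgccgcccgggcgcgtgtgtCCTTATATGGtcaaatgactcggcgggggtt
Myl9: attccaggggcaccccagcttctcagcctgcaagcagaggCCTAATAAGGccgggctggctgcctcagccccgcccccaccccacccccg
Cnn2: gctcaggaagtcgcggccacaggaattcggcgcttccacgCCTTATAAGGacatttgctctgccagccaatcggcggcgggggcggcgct
Vcl: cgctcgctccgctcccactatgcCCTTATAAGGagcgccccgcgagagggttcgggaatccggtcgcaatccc
Lima1: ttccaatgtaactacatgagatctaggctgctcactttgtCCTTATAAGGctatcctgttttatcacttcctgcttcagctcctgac

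The 3 actins were all called higher in DT, by very different amounts. Acta2 (Entrez 11475, chromosome 19 from 34240336 to 34255585 in RefSeq for GRCm38.p6, the build of every position given here), the alpha actin of smooth muscle and myofibroblasts, was at 0.870, 0.601 and 1.13 CPM in saline libraries 1 to 3. In DT libraries 1 to 3 it was at 23.1, 88.2 and 102 CPM. Its DT values do not overlap the saline values but differ among themselves, library 1 being the lowest. The fold between group means was 82.0, and the fitted log2 fold change 6.34 (SE 0.58). In saline it rested on 21, 13 and 26 reads. On the scale of log2(RPKM + 1), which shrinks low levels, the difference was 4.03.

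Actb (Entrez 11461, chromosome 5 from 142903115 to 142907976), the cytoplasmic beta actin, was at 5733, 4447 and 3085 CPM in the saline libraries and at 7790.0, 11339 and 6623 CPM in the DT libraries (log2 0.96, SE 0.25). Its saline values spread widely, library 1 being nearest to the DT range. The call was lost without saline library 2 (adjusted p = 0.0528), saline library 3 (0.0512) or DT library 2 (0.0846), with log2 values of 0.96, 0.75 and 0.67. It was also lost within the larger series of sample numbers described further on (0.91, adjusted p = 0.0548). Actg1, the cytoplasmic gamma actin, was at 3.52, 4.72 and 6.95 CPM in saline and at 8.68, 15.04 and 10.9 CPM in DT (log2 1.18, SE 0.32). Here saline library 3 lay close to DT library 1, and leaving out saline library 2, or library 2 or 3 of DT, ended the call (log2 1.14, 0.92 and 1.21, adjusted p up to 0.0972).

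Per length, Actb stood at 2199 ± 656 RPKM in saline (SD, n = 3), the 14th highest level among the genes tested, and Actg1 at 2.51 ± 0.868 RPKM. The deposited counts hold reads with a unique alignment. Of the 50-base stretches of the longest Actg1 transcript, 56.7% also occur in the transcript of another annotated gene, against 14.2% for Actb and 0.352% for Acta2. The level of Actg1 is thus uncertain, and how far shared sequence sets it was not tested.

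Of the 4 tropomyosins, which wind along the filament and govern access of myosin and cofilin, Tpm1, Tpm2 and Tpm4 were called higher and Tpm3 was not. Tpm1 (Entrez 22003, chromosome 9 from 67022590 to 67049672) was at 236, 198 and 284 CPM in saline and at 844, 1195 and 1190.1 CPM in DT, a fold of 4.49 between means (log2 2.17, SE 0.19). Tpm2 was at 70.3, 72.5 and 75.2 CPM in saline and at 208, 255 and 225 CPM in DT (log2 1.66, SE 0.13). For both genes the lowest DT library lay more than 2-fold above the highest saline library. Tpm4, the most abundant tropomyosin per length in saline, was at 209, 199 and 214 CPM in saline and at 384, 543 and 470.4 CPM in DT (log2 1.17, SE 0.15). Tpm3 ranged from 69.7 to 89.8 CPM in saline and from 81.4 to 97.6 CPM in DT, with overlapping groups, and 62.4% of its 50-base stretches occur in another gene.

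Within the tropomyosin pool, Tpm1 made up 27.0% ± 2.89 of the summed tropomyosin RPKM in saline and 42.7% ± 2.42 in DT (SD, n = 3). Tpm4 made up 51.8% ± 2.23 and 40.7% ± 1.25, and Tpm3 9.98% ± 1.09 and 4.01% ± 0.783. Tpm2 made up 11.3% ± 0.647 and 12.6% ± 1.02. The gene counts do not separate the splice forms of a tropomyosin gene, which differ between muscle and non-muscle cells.

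Among 7 genes of myosin II, 3 light chains were called higher in DT and the heavy chains were not called. Myl9 (Entrez 98932, chromosome 2 from 156775408 to 156781657), the regulatory light chain typical of smooth muscle, was at 11.1, 19.6 and 18.8 CPM in saline and at 82.8, 136 and 148 CPM in DT. The fold between means was 7.41 (log2 2.89, SE 0.27), and the groups lie far apart. Its non-muscle relatives differed less between the groups. Myl12a was at 346, 345 and 344 CPM in saline and at 476, 593 and 554 CPM in DT (log2 0.65, SE 0.13). Myl12b, next to it on chromosome 17, was at 199, 169 and 185 CPM in saline and at 168, 174 and 185 CPM in DT, with overlapping groups (log2 -0.07, SE 0.12, not called). Myl9 made up 3.62% ± 1.11 of the summed RPKM of the 3 regulatory light chains in saline and 17.9% ± 3.33 in DT, and Myl12b 50.03% ± 2.42 and 32.7% ± 2.84. Of the 50-base stretches 29.6% in Myl12a and 33.0% in Myl12b are shared with another annotated gene. Among the entries that share them, the name met most often was Myl12b, both for Myl12a and, as another entry, for Myl12b itself. The split between Myl12a and Myl12b is uncertain, and how far their reads were mixed was not tested.

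The essential light chain Myl6 was at 117, 111 and 108 CPM in saline and at 168, 203 and 188 CPM in DT (log2 0.73, SE 0.13), with no overlap. Of the heavy chains, Myh9 (myosin IIA) ranged from 131 to 285 CPM in saline and from 179.6 to 253 CPM in DT. The saline range holds the whole DT range, and the sign of the fitted change, 0.15, turned without saline library 3 (-0.07) or DT library 2 (-0.02). Myh10 (myosin IIB) was low, at 3.42 to 3.91 CPM in saline and 3.61 to 4.67 CPM in DT. Mylk, the kinase that phosphorylates the light chain in smooth muscle, was at 0.539 to 2.91 CPM in saline and 0.375 to 1.36 CPM in DT, from 8 to 67 reads a library, and its groups overlap (log2 -0.95, SE 0.71, not called).

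All 6 genes of the calponins, transgelins and caldesmon, which bind along actin filaments, were called higher in DT. Cnn1 (Entrez 12797, chromosome 9 from 22099221 to 22109221), the calponin of smooth muscle, was at 0.580, 0.786 and 0.912 CPM in saline and at 5.67, 19.00 and 16.7 CPM in DT. The fold between means was 18.2 (log2 4.17, SE 0.48), and DT library 1 was again well below DT libraries 2 and 3. On the log2(RPKM + 1) scale the difference of Cnn1 was 2.34. Cnn2, the calponin most abundant in these cells, was at 84.4, 77.2 and 94.9 CPM in saline and at 187, 189.7 and 232 CPM in DT (log2 1.25, SE 0.14). Cnn3 was at 9.28, 9.11 and 11.8 CPM in saline and at 14.5, 19.6 and 20.9 CPM in DT (log2 0.87, SE 0.22). Leaving out saline library 2, or library 2 or 3 of DT, ended its call (log2 0.80, 0.79 and 0.74, adjusted p up to 0.0894). Cnn1 made up 0.707% ± 0.137 of calponin RPKM in saline and 5.18% ± 2.55 in DT, so Cnn2 was the main calponin in both groups, at 89.9% ± 0.617 and 87.8% ± 3.28.

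The transgelins stood far apart in level per length, Tagln2 at 547 ± 32.4 RPKM in saline and Tagln at 1.45 ± 0.625 RPKM (SD, n = 3). Tagln2 (Entrez 21346, chromosome 1 from 172500246 to 172507375) was at 809.5, 757 and 848 CPM in saline and at 1216, 1693 and 1705 CPM in DT (log2 0.93, SE 0.15), and had the second highest level per length of the 38 genes in saline. Tagln, the smooth muscle transgelin also known as SM22, was at 1.74, 1.94 and 3.65 CPM in saline and at 3.75, 6.92 and 6.75 CPM in DT (log2 1.24, SE 0.39). Saline library 3 of Tagln nearly reached DT library 1, and leaving out either of saline libraries 1 and 2, or of DT libraries 2 and 3, ended the call (log2 1.03 to 1.10, adjusted p 0.0894 to 0.141). Tagln overlaps the gene Pcsk7, and 48.3% of its 50-base stretches occur in another gene. Cald1, caldesmon, which holds actomyosin in check until it is phosphorylated, was at 130.2, 124 and 107 CPM in saline and at 227, 331 and 270.4 CPM in DT (log2 1.198, SE 0.16), with no overlap.

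Because Acta2, Cnn1, Tagln and Myl9 are typical of smooth muscle, markers of muscle and mural cells were read in the same libraries. Desmin (Des) was at 0 CPM in 5 libraries and at 0.201 CPM in DT library 2. Of the pericyte markers Rgs5 had no reads in any library, while Kcnj8 had none in saline and 8, 2 and 15 reads in DT libraries 1 to 3, at most 0.599 CPM. Myh11, the smooth muscle myosin heavy chain, reached 0.953 CPM in saline library 1 and at most 0.470 CPM in DT. The enteric smooth muscle actin Actg2 and the leiomodin Lmod1 were at 0 in saline and at most at 0.873 and 0.639 CPM in DT. Actg2 had 4, 13 and 5 reads in the DT libraries and Lmod1 3, 3 and 16. Of 10 smooth muscle markers outside the 38 genes 5 could be tested. Itga8 was called higher (log2 2.93), Synpo2 (-1.40) and Myocd (-1.59), a cofactor of SRF in muscle, were called lower, and Smtn and Synm were not called.

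The summed level of the 10 smooth muscle markers was 67.1 to 98.7 CPM in saline and 72.6 to 131 CPM in DT, and 60.6 to 122.9 CPM of it in each library came from Smtn. Of 7 pericyte markers 2 could be tested and 0 were called. Their sum, 228 to 332 CPM in saline and 176 to 306 CPM in DT, was almost wholly Cspg4. Of 8 fibroblast markers 3 could be tested, and Col1a2 (log2 -1.22) and Fbln1 (-0.95) were called lower. Their sum was 207 to 365 CPM in saline and 114 to 168 CPM in DT, mostly from Fbln1, and Pdgfra was at most at 0.478 CPM. Of 9 skeletal muscle markers 2 could be tested and 0 were called, with sums of 6.34 to 9.78 CPM in saline and 8.12 to 12.2 CPM in DT. Markers of endothelium (1 of 5 tested lower), immune cells (4 of 7 lower) and melanocytes (2 of 3 lower) had sums of 5.27 to 39.0, 146 to 214 and 13.5 to 27.4 CPM in saline and 10.2 to 14.97, 97.1 to 117 and 7.92 to 10.5 CPM in DT. The part of other cell types in the levels of the 38 genes was not tested.

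**Figure D2:**
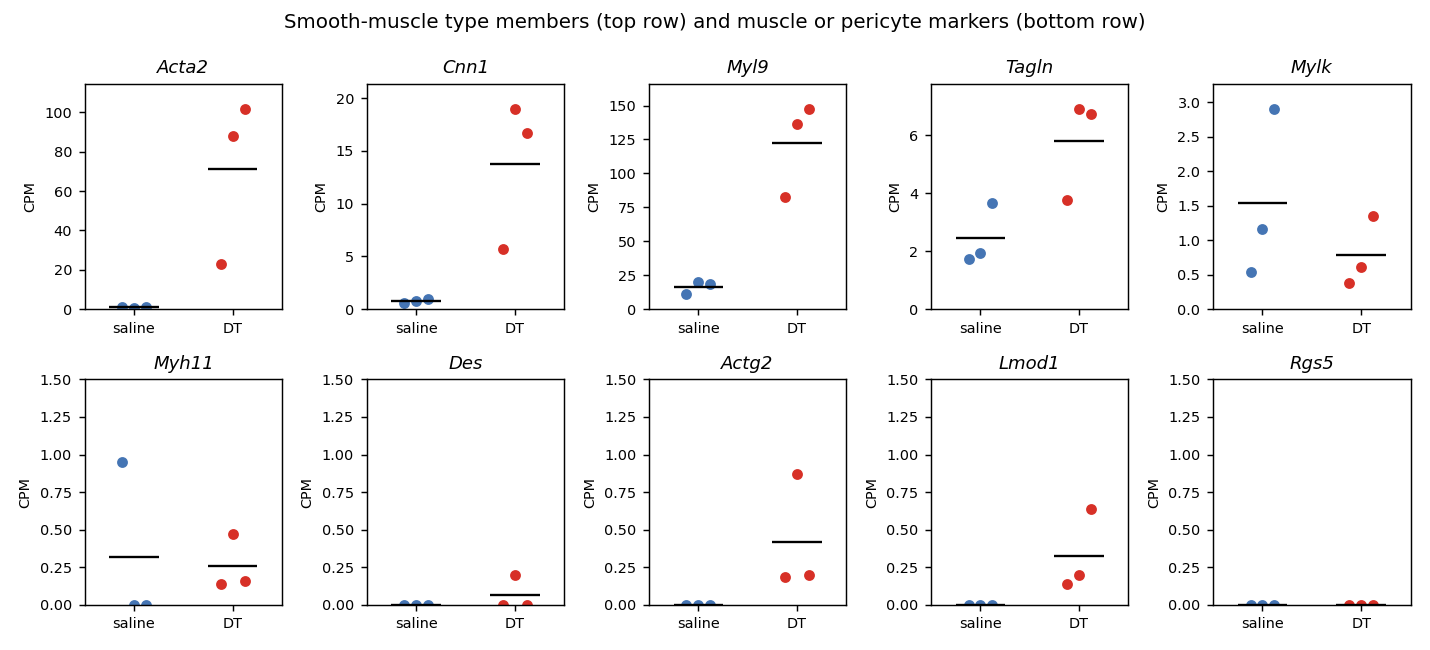
Level in CPM of 5 smooth-muscle type members (top) and of 5 markers of smooth muscle and pericytes (bottom) in saline and DT. The 5 markers were selected for few or no reads. Smtn, Cspg4, Itga8, Synpo2, Myocd, Synm and Notch3 of the same lists exceed 1 CPM in at least 1 library and are not drawn. Of these, Itga8 was called higher in DT, Synpo2 and Myocd were called lower, and the others were not called. Each point is 1 library and each line a group mean (n = 3); every panel has its own axis from 0. Acta2, Cnn1 and Myl9 are high in the DT libraries, Mylk is not, and the 5 selected markers stay below 1 CPM.

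Of 12 genes of adhesion sites and filament cross-linking, 7 were called higher and 5 were not called. Fhl2 (Entrez 14200, chromosome 1 from 43123071 to 43198343), a LIM-domain protein that binds integrins and transcription factors, was at 0.995, 0.740 and 1.65 CPM in saline and at 12.4, 24.6 and 21.04 CPM in DT. It had a fold of 17.2 between means (log2 4.09, SE 0.38) and its lowest DT library lies far above its highest saline library. On the log2(RPKM + 1) scale its difference was 2.70. Pdlim7, a PDZ-LIM adaptor on stress fibres, was at 16.7, 13.5 and 11.1 CPM in saline and at 42.8, 39.9 and 31.6 CPM in DT (log2 1.47, SE 0.20). The other PDZ-LIM gene, Pdlim5, was at 165 to 178 CPM in saline and 161 to 184 CPM in DT (log2 0.02, SE 0.12, not called, with its sign changing between settings).

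The filamin Flna (Entrez 192176, chromosome X from 74223461 to 74249854), which joins filaments into a mesh, was at 117, 125 and 118 CPM in saline and at 221, 294 and 279 CPM in DT (log2 1.14, SE 0.14). Csrp1, a LIM protein found with alpha-actinin and zyxin, was at 71.6, 96.7 and 179.6 CPM in saline and at 224, 207 and 343 CPM in DT (log2 1.153, SE 0.31). Library 3 was the highest of its group in both treatments for Csrp1. Saline library 3 and DT library 3 form the smaller series of sample numbers described further on. The Csrp1 call was lost without a filter on low counts (adjusted p = 0.169) and when saline library 1, saline library 2 or the third DT library was left out (log2 0.88, 1.04 and 0.87, adjusted p up to 0.0922). Zyxin (Zyx), which gathers at strained filaments, was at 76.6, 72.2 and 69.5 CPM in saline and at 151, 105 and 129 CPM in DT (log2 0.82, SE 0.15). Vinculin (Vcl), which reinforces adhesions under tension, was at 92.96, 87.7 and 94.2 CPM in saline and at 130.5, 187 and 152 CPM in DT (log2 0.77, SE 0.15). Vcl and its neighbour Ap3m1 overlap, and they share 39.2% of the 50-base stretches of the Vcl transcript.

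Of the alpha-actinins, which bundle filaments, Actn1 ranged from 189.9 to 294 CPM in saline and from 326 to 369.95 CPM in DT (log2 0.55, SE 0.16) and was called. That call was lost when scaled by library size only (adjusted p = 0.0713) and when library 2 or 3 of either group was left out (log2 0.41 to 0.57, adjusted p up to 0.114). Actn4, higher per length, was at 1001, 968 and 880.2 CPM in saline and at 1287, 1057 and 889 CPM in DT, where library 3 falls among the saline values (log2 0.18, SE 0.15, not called). Talin (Tln1), the link from integrins to actin, was at 89.4 to 119 CPM in saline and 64.7 to 98.6 CPM in DT (log2 -0.36, SE 0.18), and of 16 alternatives 1, without DT library 1, called it lower (log2 -0.52, adjusted p = 0.0395). Lima1 (EPLIN), at 327 to 376 CPM in saline and 372 to 538 CPM in DT, and Vasp, at 8.86 to 15.7 and 10.5 to 16.2 CPM, had overlapping groups and were not called.

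Of 6 genes of filament turnover and bundling, 5 were called higher in DT and Capg was not. Wdr1 (Entrez 22388, chromosome 5 from 38526806 to 38562922), which helps cofilin take filaments apart, was at 286, 306 and 302 CPM in saline and at 562, 650.3 and 656 CPM in DT (log2 1.06, SE 0.12). Cofilin itself, Cfl1, was at 94.3, 71.6 and 64.9 CPM in saline and at 179.5, 220.5 and 159.6 CPM in DT (log2 1.28, SE 0.18). Profilin (Pfn1), which hands monomers to growing ends, was at 233, 161 and 135 CPM in saline and at 334, 422 and 311 CPM in DT (log2 1.01, SE 0.21). In all 3 genes the lowest DT library exceeded the highest saline library, by a smaller factor in Pfn1 than in the others. The capping protein Capg was at 993, 1026 and 1006 CPM in saline and at 1198, 1146 and 1203 CPM in DT, without overlap but with a log2 value of only 0.23 (SE 0.11).

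Diaph3 (Entrez 56419, chromosome 14 from 86655357 to 87141247), a formin that builds unbranched filaments and acts in cytokinesis, was at 2.24, 1.295 and 1.52 CPM in saline. In DT it was at 13.8, 19.2 and 22.99 CPM, a fold of 11.1 between means (log2 3.46, SE 0.31). Its saline values rested on 54, 28 and 35 reads, and on the log2(RPKM + 1) scale the difference was 1.57. Fscn1, which bundles filaments in cell protrusions, was low throughout, at 0.304 to 0.705 CPM in saline and 2.25 to 3.42 CPM in DT (log2 2.53, SE 0.51). Its call was lost within the larger series of sample numbers (log2 2.38, adjusted p = 0.064), and on the log2(RPKM + 1) scale, which shrinks low levels, its difference was 0.75.

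On the per-length scale of the deposited RPKM, levels can be set between genes. In saline, 7 of the 38 genes were above 100 RPKM: Actb, Tagln2 (547 ± 32.4), Capg (448 ± 6.99), Actn4 (220.5 ± 14.1), Pfn1 (190.5 ± 54.8), Myl12b (184 ± 14.8) and Myl12a (170.5 ± 0.402 RPKM, SD, n = 3). In that order the neighbours Actn4, Pfn1, Myl12b and Myl12a lie within each other's spread or nearly so. In DT 14 genes were above 100 RPKM. At the other end 7 genes were below 1 RPKM in saline, namely Acta2, Cnn1, Diaph3, Fhl2, Fscn1, Myh10 and Mylk, and 3 of these (Fscn1, Myh10 and Mylk) in DT. Acta2 stood at 0.289 ± 0.0887 RPKM in saline and 23.9 ± 14.3 RPKM in DT, which was 0.578% ± 0.413 of the actin RPKM in DT beside 99.3% ± 0.439 for Actb.

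**Figure D3:**
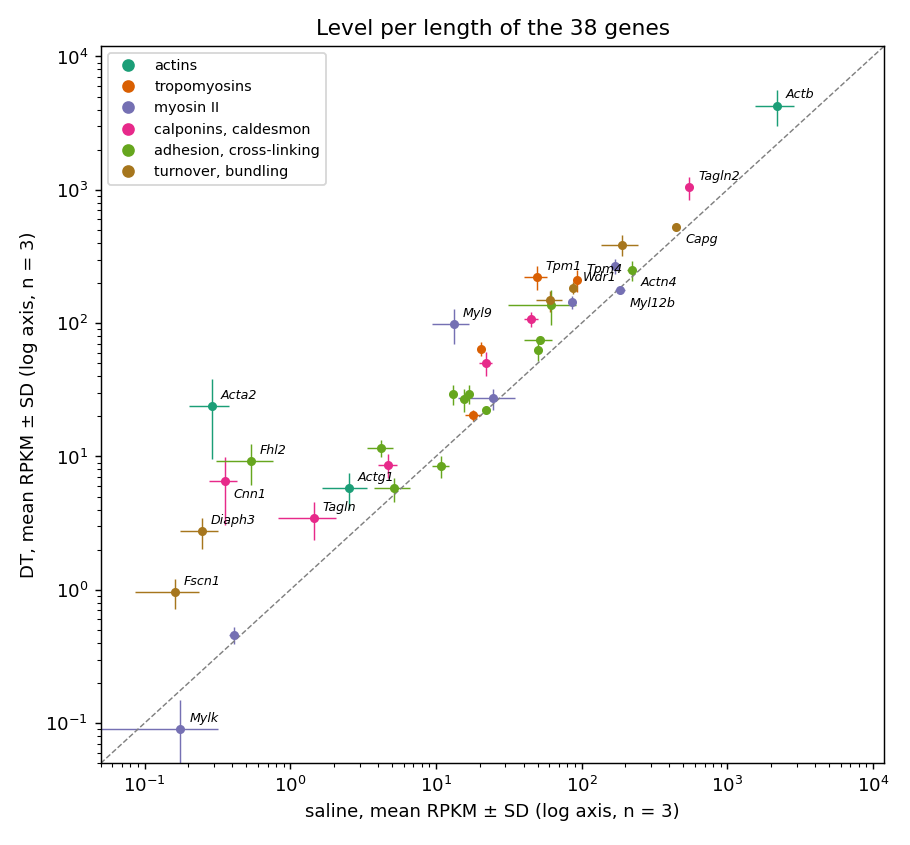
Mean level per length in DT against saline for the 38 genes, in RPKM on log axes with SD (n = 3), coloured by role. The dashed line marks equal levels; Acta2, Cnn1, Fhl2 and Diaph3 lie far above it at the low end, while Capg, Actn4 and Myl12b lie close to it at the high end.

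Within the DT group the libraries did not reach the same levels. Of the 38 genes 23 were lowest in DT library 1, 9 in library 3 and 6 in library 2. Relative to the mean of the saline libraries, the median of the 38 genes was 0.82 in DT library 1, 1.10 in library 2 and 1.05 in library 3 on the log2 scale, and the saline libraries had medians of -0.03 to 0.02. The 6 genes of the calponins, transgelins and caldesmon had medians of 0.76, 1.27 and 1.26, and the 12 adhesion genes 0.59, 0.59 and 0.60. Single adhesion genes differed between the libraries in either direction, Vcl standing at 0.51, 1.03 and 0.73 and Zyx at 1.05, 0.53 and 0.82. Sample numbers given by the submitters form 2 series. Within the larger, of 4 libraries, the DT mean was above the saline mean for 35 of the 38 genes, and 18 were called higher. Of all genes, 1097 were called higher and 473 lower there. In the smaller, of saline library 3 and DT library 3 and with no test, DT was above saline for 35. Both series are parts of the libraries on which the list was drawn up. The share of all genes with DT above saline was not computed in either, so nothing is read from these counts. Acta2 differed 75.6-fold in the larger series and 90.3-fold in the smaller.

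**Figure D4:**
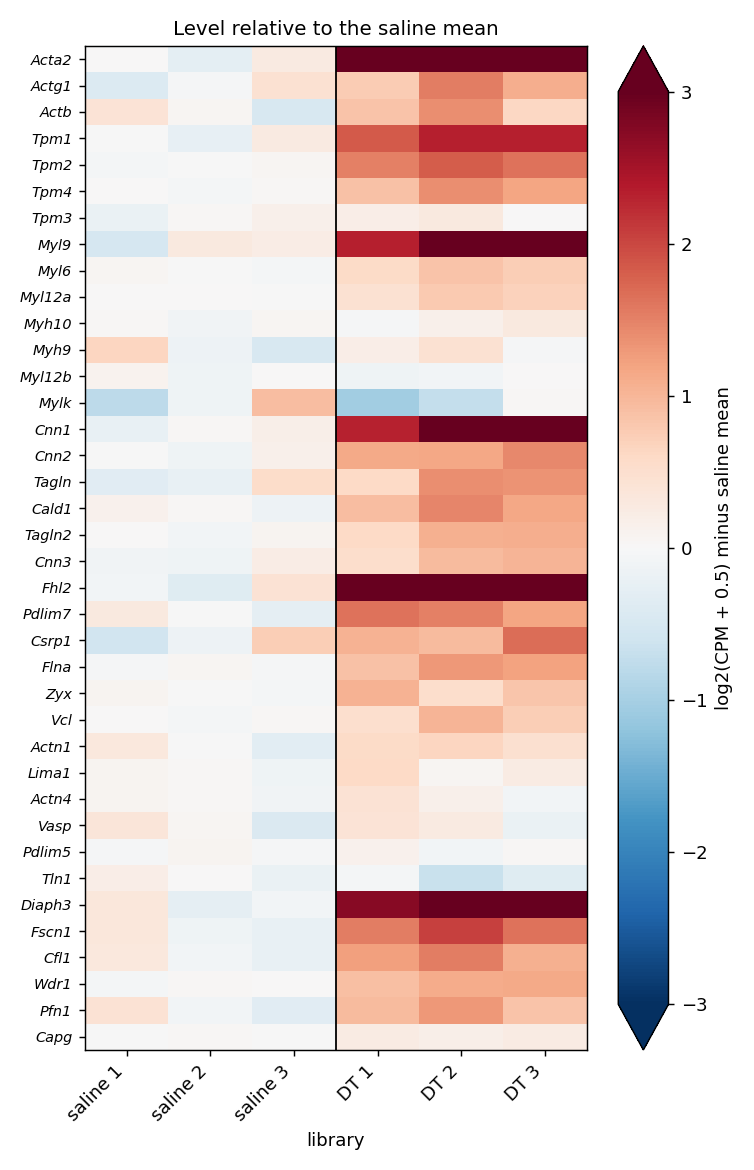
Level of each of the 38 genes in each library as log2(CPM + 0.5) minus the mean of the saline libraries, with colours cut at 3 either way. The DT columns are red for most genes, most deeply for Acta2, Cnn1, Fhl2, Diaph3 and Myl9, and DT library 1 is paler than libraries 2 and 3 for Cnn1 and Myl9.

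Genes around this machinery were read from 7 further lists that hold none of the 38 genes and were tested in the same fit. Of 96 genes 90 could be tested, 36 rose and 6 fell, and their median log2 fold change was 0.34 (-0.01 over all genes tested). The lists differed: the contractile ring list, which also holds genes of mitosis, had 11 genes that rose and a median of 2.85. The other lists had medians from -1.01 to 0.48. Over all genes tested 17.2% were called higher and 11.9% lower. With only the 4 libraries of the larger number series 18 rose and 0 fell. Twf2, Palld, Ccn2, Filip1l and Myl6b were among those that fell. Some of these genes belong to groups already known from these libraries to change, so they are no independent evidence.

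Of 15 genes tested in the list for control of contraction by ROCK and MRTF-SRF 4 rose and 0 fell, with a median log2 fold change of 0.01. The GTPases Rhoa (log2 0.71, adjusted p = 0.00257), Rhob (1.90, adjusted p = 0.00139) and Rhoc (1.39, adjusted p = 0.000406) rose, as did Ppp1cb (1.01, adjusted p = 0.000405), the catalytic subunit of myosin phosphatase. Rhob went from 9.16, 6.75 and 6.03 CPM in the saline libraries to 19.8, 39.4 and 23.2 CPM in the DT libraries. The kinases Rock1 (-0.22, adjusted p = 0.248) and Rock2 (-0.06, adjusted p = 0.792) did not pass, nor did Srf (0.48, adjusted p = 0.143), Mrtfa (0.11, adjusted p = 0.755) and Mrtfb (-0.46, adjusted p = 0.0662).

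Among 16 genes of the Arp2/3 complex and its activators, which start branched filaments, 7 rose and 0 fell, with a median of 0.35. The subunits Actr3 (log2 0.94, adjusted p = 0.00134), Arpc1b (1.03, adjusted p = 0.00563), Arpc2 (0.63, adjusted p = 0.00469) and Arpc3 (0.92, adjusted p = 0.00528) were among the 7. Of 16 genes for monomers and filament ends 7 rose and Twf2 fell (-0.78, adjusted p = 0.0349), with a median of 0.48. The monomer-binding thymosin Tmsb4x (0.69, adjusted p = 0.00316), Twf1 (0.79, adjusted p = 0.00497), destrin (Dstn, 0.88, adjusted p = 0.00527) and Coro1c (0.92, adjusted p = 0.000874) rose. Gelsolin (Gsn), which severs and caps filaments, did not pass (-0.21, adjusted p = 0.377).

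Of 20 adhesion and junction links 3 rose and 2 fell, with a median of 0.11. These shares are near those of all genes tested (17.2% higher and 11.9% lower). Parva, a parvin that joins integrin-linked kinase to actin, rose (log2 0.996, adjusted p = 0.000877). Ctnna1, alpha-catenin, was called higher (0.43, adjusted p = 0.0306), but leaving out any 1 of the 6 libraries ended the call (log2 0.35 to 0.49, adjusted p up to 0.0832), as did scaling by library size only (log2 0.33, adjusted p = 0.0591). Palld fell (-0.49, adjusted p = 0.0324), but leaving out saline library 1, saline library 2, or library 2 or 3 of DT, ended the call (log2 -0.57 to -0.36, adjusted p up to 0.0919).

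The contractile ring that pinches dividing cells is built from the same filaments. The list read for it also holds genes of mitosis and of its regulation, such as Aurkb, Prc1, Kif23 and Ect2, and Rhoa from the ROCK list. Of the 12 genes in this list 11 rose, with a median log2 fold change of 2.85. Anillin (Anln) rose by 3.81 (adjusted p = 2.8e-05), the exchange factor Ect2 by 3.69 (adjusted p = 3.28e-05), Prc1 by 3.49 (adjusted p = 5.75e-05) and Aurkb by 4.16 (adjusted p = 3.7e-05). Anln was at 17.1, 14.7 and 14.5 CPM in saline and at 145, 263 and 243 CPM in DT, lowest in DT library 1. The septins are also part of the cortex of cells that do not divide. Septin2 rose by 0.45 (adjusted p = 0.0309), Septin7 by 0.50 (adjusted p = 0.0207) and Septin11 by 0.87 (adjusted p = 0.00854). Septin9 did not pass (0.23, adjusted p = 0.336).

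Known targets of MRTF-SRF or YAP outside the 38 genes went both ways. Of 11 tested 5 rose and 2 fell, with a median of 0.48. Thbs1 (log2 2.05, adjusted p = 7.47e-05), Fhl1 (1.78, adjusted p = 0.00177) and Tgfb1i1 (1.17, adjusted p = 0.00139) rose. Ccn2 fell (-0.90, adjusted p = 0.0144), from 990.2, 668 and 894 CPM in saline to 579, 312 and 472 CPM in DT. Of 6 further actin and myosin genes 2 could be tested. Myh14, myosin IIC, did not pass (-0.49, adjusted p = 0.149). Myl6b fell (-1.54, adjusted p = 0.0386), but not when library 2 or 3 of either group was left out (log2 -1.67 to -1.16, adjusted p up to 0.166) nor by limma-voom (log2 -1.45, adjusted p = 0.0514). Its call was also lost with the number series as a term (log2 -1.48, adjusted p = 0.0603), with consecutive identifiers as a pair (log2 -1.51, adjusted p = 0.061) and within the larger series (log2 -1.105, adjusted p = 0.354). The muscle actins Acta1, Actc1 and Actg2 and the heavy chain Myh11 had too few reads.

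**Figure D5:**
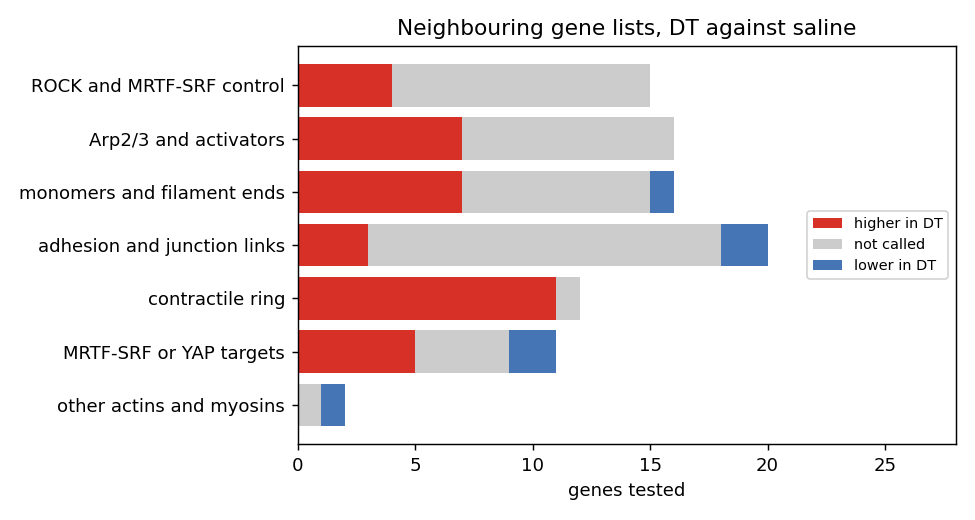
Number of genes tested in each of 7 lists around the contractile machinery that were higher in DT, lower in DT or not called in the fit across all genes. The contractile ring list, which also holds genes of mitosis, has 11 of 12 genes higher, the adhesion and junction links 3 of 20. Over all genes tested 17.2% were higher and 11.9% lower.

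Sequence shared with other genes bears on how exactly the 38 genes could be counted. For 12 of them more than 10% of the 50-base stretches of the longest transcript occur in the transcripts of another gene. Of these 12 genes 10 were called higher, with a median log2 fold change of 0.82. Of the other 26, 17 were called higher, with a median of 1.10. Over all genes tested 17.2% were called higher. These calls come from the contrast on which the list was drawn up, so nothing is read from the difference. Acta2, Cnn1, Fhl2, Myl9, Tpm1 and Tpm2 shared less than 1% and Diaph3 4.77%. The protein-coding genes Car9, Pcsk7, Ap3m1, Capn12, Epha1 and Eno3 overlap Tpm2, Tagln, Vcl, Actn4, Zyx and Pfn1 in the RefSeq annotation. Whether counting used strand is not given in the sources used here, so reads of such pairs could not be assigned with certainty.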

How the data were processed

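The samples were 6 sorted cell libraries, 3 saline and 3 DT, grouped by the treatment in the labels; their numbers follow accession order and pair nothing. GSNAP was the aligner and GRCm38 the genome, per the submitters' processing notes. Annotation and strand setting: not given in the sources used here. The authors deposited a count of uniquely aligned reads per gene and a size-factor-adjusted RPKM value, per the file headers. Within a library that RPKM was the count divided by gene length and a single factor, and it served for levels between genes and for an alternative test. Symbols came from RefSeq for GRCm38.p6, which named 31049 of 36528 identifiers. Libraries held 15300755 to 25558859 reads in genes.

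Differences were tested by edgeR 4.0.16 under R 4.3.3 (filterByExpr with a minimum count of 10 and total of 15, TMM scaling, robust quasi-likelihood test without covariates, Benjamini-Hochberg adjustment over 15132 genes). The test was checked on simulated counts. A standard error is the size of the fitted log2 fold change divided by the square root of F. CPM values use the TMM library sizes. Shared sequence is the share of 50-base stretches of the longest protein-coding GENCODE M21 transcript found in a transcript of another gene. The members and lists were chosen with earlier results of these data known. Values in every library are given for Actb, Actg1, the member with the highest saline RPKM of each role, and members that reach 5 CPM on average in either group with a fold of at least 1.5. From each list up to 4 genes with the smallest p were named, except 1 that is not reported here, and the others named were chosen after their values were seen. Alternatives were DESeq2 1.42.0 size factors or library size only, no filter or a mean count of 10, DESeq2, limma-voom and limma 3.58.1 on log2(RPKM + 1), the number series of the sample identifiers as a term, consecutive identifiers as a pair, and each library left out. Fits within the larger number series were added after seeing the data.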

Additional observations from a re-analysis of the deposited data

How the results depend on the processing

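The count of members called higher in DT (27) was 26 or 27 under the other scalings, filters, tools and terms, 18 within the larger number series, and 21 to 27 with 1 library left out. The count called lower was 0, and 0 to 1 with a library left out (Tln1, without DT library 1). The summed level and the median of the members stayed within the spread of the libraries in each alternative. Within the larger number series, of 4 libraries, 1097 of all genes were called higher and 473 lower, and of the list genes 18 and 0. Leaving out 1 library gave 1564 to 2826 genes higher and 996 to 2045 lower, and 26 to 36 list genes higher and 1 to 9 lower (1 without saline library 2, 2 without DT library 2, 3 without DT library 3). The cause was not tested; these fits hold fewer samples. Of the uncalled members, 3 changed sign: Pdlim5 with library size only (-0.074) and no filter (-0.0013), and with 1 library left out it ran from -0.030 to 0.062, Myh9 from -0.069 to 0.517 and Vasp from -0.046 to 0.335. Over the 16 alternatives 26 of 38 members had the same call in each and 12 did not; calls of Cnn3 (adjusted p = 0.0995), Tagln (0.0879), Actn1 (0.193), Myl6 (adjusted p = 0.0616), Myl12a (0.0854), Vcl (0.0566) and Zyx (0.0646) were among those lost within the larger number series. The labels give no replicate number that pairs libraries. In a blocked fit with consecutive sample identifiers as a pair 27 members were called higher, and of the list genes named it ended the call of Myl6b. Depth limits Mylk, Fscn1 and the saline values of Acta2, Cnn1, Fhl2 and Diaph3, which rest on few reads.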
